A study of Homo sapiens with 64 samples.

Results

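The genes examined here were 10 components of the circadian clock: the period genes PER1, PER2 and PER3, the cryptochromes CRY1 and CRY2, the REV-ERB receptors NR1D1 and NR1D2, the output factor DBP, and the repressors CIART and BHLHE40. They, and the lists compared with them, were chosen by symbol with earlier results of these data known. The Ensembl identifiers in the count tables were matched to a GENCODE annotation of GRCh37, and all 10 were found among the 54127 genes that every table listed. The series held 64 RNAseq libraries of human colorectal cancer (CRC) cell lines grown as spheroids, floating cell balls kept in medium with EGF and bFGF. CFSE is a dye that binds cell protein and is diluted at each division, so that a cell still bright after days in culture, a label-retaining cell (LRC), has divided rarely.

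Of these libraries, 48 came from 6 CFSE-labeled lines sorted 6 d after labeling into LRCs and non-LRCs, the latter being the cycling bulk population, with 4 libraries of each. The study assigned the lines to CRC subtypes, namely CCS1 (HT55, SW948), CCS2 (RKO, SW48) and CCS3 (HCT15, DLD1). The other 16 were unsorted controls labelled DLD1, with 4 libraries in each of 4 groups: CFSE-labeled or unlabeled cells, the latter given only the solvent DMSO, each collected at day 1 and at day 6 after seeding. The sample labels call the later control time d5, where the design text of the series gives day 6, which is the term used here. The labels name no engineered allele and no drug besides the dye, and each line is a single established culture, so that the 4 replicates, stated to be biological, do not sample different tumors. The hour of collection and any synchronization of the cells are not given in the sources used here.

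In the clock, the activators CLOCK and BMAL1 (the product of ARNTL) bind E-box elements and switch on the PER and CRY genes, whose proteins accumulate and shut the activators down again. An interlocked loop runs through the REV-ERB receptors, which are induced by the same activators and repress ARNTL in turn, while DBP carries the rhythm to D-box elements of output genes. In cultured cells a change of medium, serum or other signals sets single-cell rhythms in step, and PER1, PER2 and BHLHE40 also respond to such signals directly.

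The 4 clock genes that fell with time in the CFSE-labeled controls are shown first through their promoters, since E-boxes are the elements that the clock activators bind. RefSeq promoters (GRCh38.p14, 250 bases before to 50 after the start site) were found for all 10 genes, and the first listed start site of each was searched on both strands. Any other start sites of these genes were not searched, whereas the background of all promoters holds every distinct one. The stretches below lie before the start site and run 5′ to 3′ on the strand of the gene, with 40 bases on either side of the match, and capitals mark the match. The letters searched were CACGTG for the E-box, and for the E′-box they were CACGTT, which reads AACGTG on the opposite strand. They lie at chr17:8152532-8152617 (PER1), chr2:238288762-238288847 (PER2), chr12:107093593-107093678 (CRY1) and chr17:40100712-40100797 (NR1D1), all on the minus strand.
PER1: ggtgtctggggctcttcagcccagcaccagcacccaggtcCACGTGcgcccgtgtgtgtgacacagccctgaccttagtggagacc
PER2: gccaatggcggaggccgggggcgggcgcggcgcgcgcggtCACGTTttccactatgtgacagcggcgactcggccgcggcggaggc
CRY1: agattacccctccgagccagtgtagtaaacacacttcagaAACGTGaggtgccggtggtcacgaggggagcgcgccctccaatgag
NR1D1: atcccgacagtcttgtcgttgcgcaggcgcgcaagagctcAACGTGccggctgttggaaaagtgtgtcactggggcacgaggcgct

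The match began 173 bases before the start site in PER1, 197 in PER2, 89 in CRY1 and 168 in NR1D1. In all, 3 of the 10 promoters held the E-box (PER1, BHLHE40, and CIART with 3 matches) and another 3 the E′-box (PER2, CRY1, NR1D1), against 7.26% and 5.34% of the 35093 RefSeq promoters searched. The D-box core TTANNTAA was found in PER2 and PER3 and in 5.64% of all promoters. The cAMP response core TGACGT (7.98% of promoters) and the REV-ERB and ROR response element (0.581%) were in none of the 10 windows. A match describes these letters only.

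Expression was measured as counts of 50-base single-end reads per gene, with 12237225 to 20913455 counts per library, and is given as CPM, counts relative to library size with TMM scaling over all 64 libraries. Across them PER1 held 194 to 1190 counts per library, NR1D1 155 to 3144 and BHLHE40 216 to 9480, whereas CIART held 0 to 83, so that its values carry the largest counting error. Differences are log2 fold changes from edgeR's quasi-likelihood test with their standard error (SE), and a gene was called at a Benjamini-Hochberg adjusted p under 0.05 over all genes tested. Each background is the share of all genes called at that adjusted threshold. Counts at an unadjusted p under 0.05 have no share of all genes beside them, so no excess can be read from them. On the hg19 annotation 18% of the exon bases of NR1D1 (chr17:38249046-38256842) lie within the antisense gene THRA. The corresponding overlaps were 12.8% for BHLHE40 with BHLHE40-AS1, 10.7% for PER3 with UTS2 and 10.2% for DBP with SPHK2, and whether the counting used strand is not given in the sources used here.

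Some libraries stood apart from their labels. All 16 controls labelled DLD1 correlated more with the sorted HCT15 libraries (mean Pearson r over genes 0.946 to 0.987) than with the sorted DLD1 libraries (0.911 to 0.951). Of 335 genes that separated sorted DLD1 from sorted HCT15 by a log2 difference above 3, 86.3% to 99.7% lay on the HCT15 side in each control. The controls are therefore called by their label, and DLD1 and HCT15 are named as labelled. In addition, 7 of the 64 libraries were closer to another group of the same cells than to their own: unlabeled day 1 replicate 4, CFSE-labeled day 1 replicates 3 and 4, HT55 non-LRC replicate 2, SW948 LRC replicate 4, HCT15 LRC replicate 4 and HCT15 non-LRC replicate 2. The tests of time, dye and LRCs that rest on them are given also without them, a choice made after seeing the data that can raise calls by its construction. The epithelial markers EPCAM and CDH1 stood at 339 to 1712 CPM and 435 to 1388 CPM outside RKO, but at 14.9 to 19.8 CPM and 0.624 to 1.39 CPM in RKO.

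Between day 1 and day 6 the period gene PER1 fell in the controls with and without dye and the REV-ERB receptor NR1D1 fell in those with dye, unevenly between replicates. In unlabeled controls PER1 stood at 63.5, 68.2, 18.2 and 18.6 CPM at day 1 in replicates 1 to 4, and at 23.2, 18.4, 19.2 and 19.9 CPM at day 6. In CFSE-labeled controls it stood at 51.95, 45.7, 22.1 and 25.1 CPM at day 1 and at 17.9, 13.1, 17.1 and 16.7 CPM at day 6. Replicates 1 and 2 of day 1 were high with and without dye, and all CFSE-labeled day 1 values lay above all day 6 values, while the unlabeled groups overlapped. The fall was 1.07 on the log2 scale without dye (log2 fold change -1.07, SE 0.38, edgeR adjusted p = 0.048) and 1.20 with dye (-1.20, SE 0.38, edgeR adjusted p = 0.02).

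NR1D1, which encodes REV-ERB alpha, showed the same division between replicates. Its unlabeled day 1 values were 83.0, 80.1, 17.6 and 19.0 CPM against 25.4, 25.7, 19.2 and 21.1 CPM at day 6. With dye they were 86.5, 82.5, 28.8 and 30.3 CPM at day 1 and 29.8, 26.8, 21.1 and 25.1 CPM at day 6. Day 1 replicates 1 and 2 were far above every other control library, and replicates 3 and 4 lay near the day 6 range. The change passed the test with dye (log2 fold change -1.20, SE 0.46, edgeR adjusted p = 0.047) and missed it without (-1.13, SE 0.46, adjusted p = 0.077).

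PER2, the partner of PER1 in the repressor complex, stood at 25.9, 23.6, 14.9 and 15.7 CPM at day 1 and 15.6, 13.2, 14.7 and 14.95 CPM at day 6 without dye. With dye it stood at 49.8, 48.8, 21.4 and 19.3 CPM at day 1 and 16.8, 13.1, 16.4 and 14.2 CPM at day 6. Here too replicates 1 and 2 of day 1 were the highest, and the dye groups of day 1 and day 6 did not overlap. PER2 fell with time in CFSE-labeled cells (-1.25, SE 0.28, edgeR adjusted p = 0.0027), whereas the change in unlabeled cells missed the threshold (-0.46, SE 0.28, adjusted p = 0.22). PER3, the period gene least tied to the core loop, stayed between 4.46 and 10.2 CPM in all 16 controls and was not called in either comparison.

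**Figure D1:**
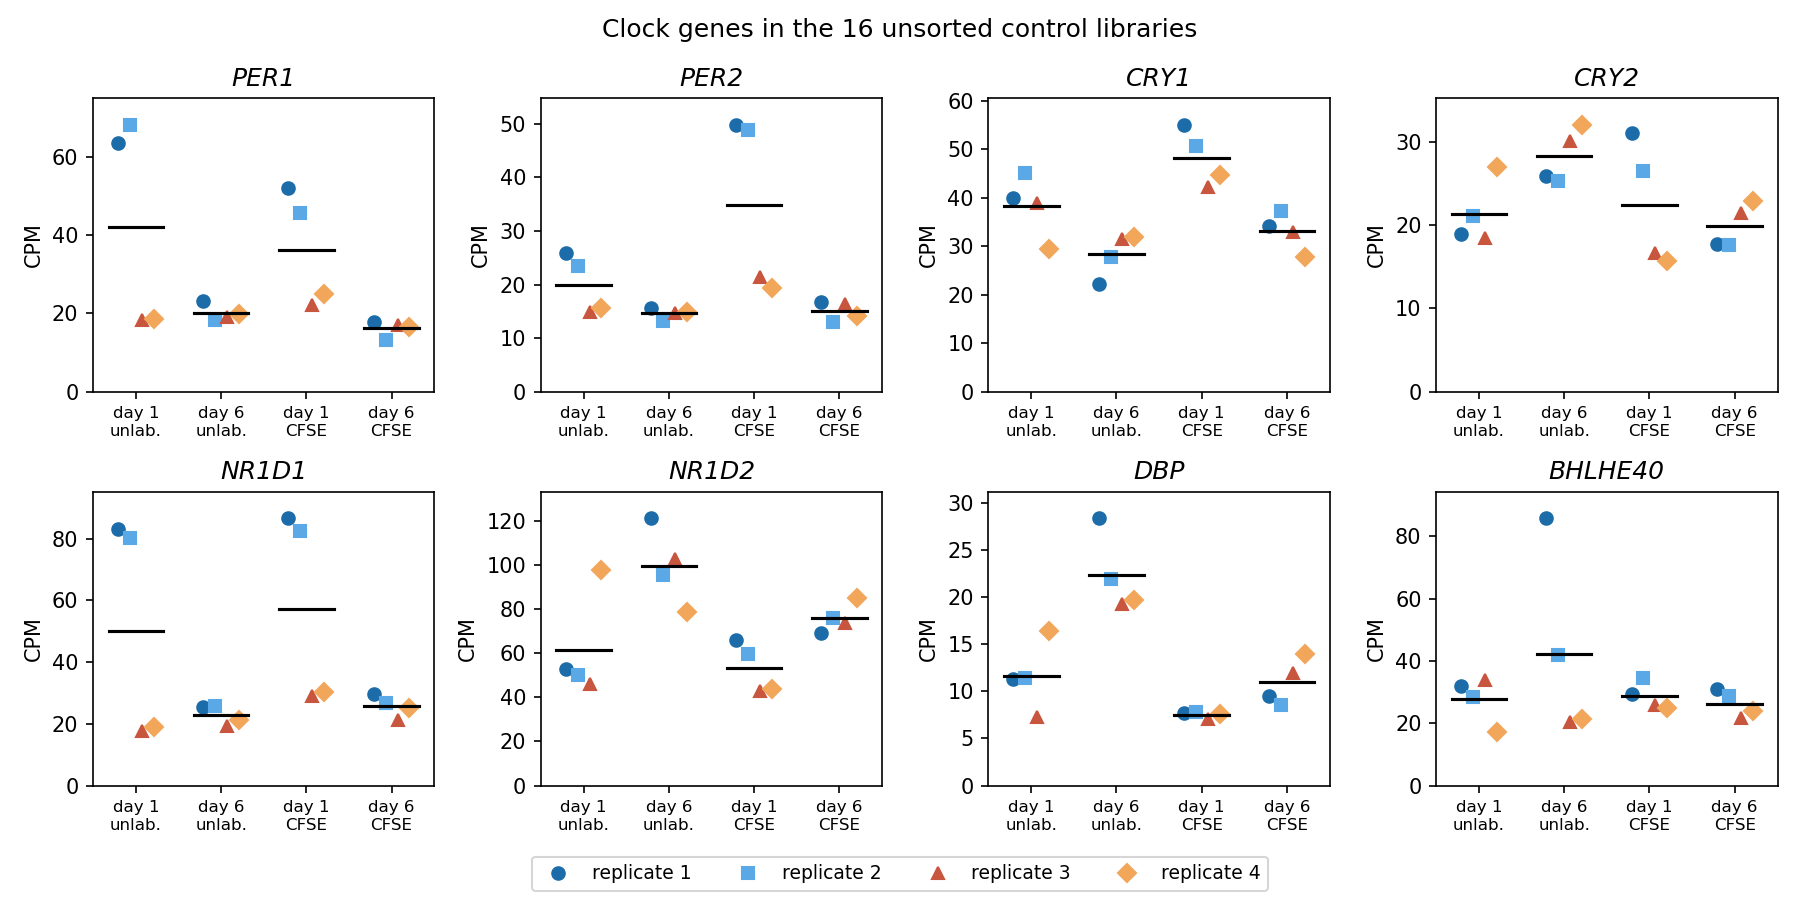
Level of 8 clock genes in CPM (vertical axis, from 0) in the 16 unsorted controls labelled DLD1, by day and dye; symbols and colors stand for replicate numbers and bars for the mean of 4. PER1, PER2 and NR1D1 are highest in replicates 1 and 2 of day 1, where NR1D1 stands at 80.1 to 86.5 CPM, and lie close together at day 6; NR1D2 and DBP are on average higher at day 6.

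The cryptochrome CRY1, the stronger repressor of its family, fell in both comparisons, with replicates 1 and 2 of day 1 again above 3 and 4. With dye it stood at 55.02, 50.6, 42.2 and 44.7 CPM at day 1 and 34.1, 37.3, 32.9 and 27.8 CPM at day 6. The CFSE-labeled groups did not overlap, and the fall was 0.58 on the log2 scale (log2 fold change -0.58, SE 0.15, edgeR adjusted p = 0.0066). Without dye it stood at 39.96, 45.04, 38.9 and 29.4 CPM at day 1 and 22.1, 27.8, 31.6 and 31.9 CPM at day 6 (-0.43, SE 0.15, edgeR adjusted p = 0.045). There the mean of day 6 was 0.588 times that of day 1 in replicates 1 and 2 and 0.929 times in 3 and 4, while with dye these ratios were 0.676 and 0.699. CRY2 moved by 0.41 (SE 0.20, adjusted p = 0.14) and -0.21 (SE 0.21, adjusted p = 0.43) and was called in neither.

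NR1D2 and DBP went the opposite way in unlabeled cells. NR1D2, the paralog of NR1D1, stood at 52.7, 50.0, 46.0 and 97.7 CPM at day 1 and at 121, 95.5, 103 and 78.4 CPM at day 6 (log2 fold change 0.68, SE 0.22, edgeR adjusted p = 0.031). DBP, which activates D-box genes, stood at 11.4, 11.4, 7.25 and 16.4 CPM at day 1 and 28.4, 22.0, 19.3 and 19.7 CPM at day 6 (0.94, SE 0.21, edgeR adjusted p = 0.009). Every day 6 value of DBP lay above every day 1 value, and for NR1D2 the overlap came from day 1 replicate 4. With dye the same genes moved by 0.47 (SE 0.22, adjusted p = 0.092) and 0.51 (SE 0.22, adjusted p = 0.073). The repressors were not called: BHLHE40 moved by 0.59 (SE 0.34) without dye and -0.16 (SE 0.34) with it, and CIART, at 0 to 0.934 CPM in the controls, by -1.75 (SE 0.72) and -1.63 (SE 0.77).

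In counts, time changed 4 of the 10 genes in unlabeled cells, 2 higher and 2 lower, where 25.5% of all 14518 genes tested were called. In CFSE-labeled cells 4 were called, all lower, where 39.3% of all genes were called. These shares of clock genes are close to the background. The calls of the unlabeled comparison changed with the libraries used. Without unlabeled day 1 replicate 4, which resembled day 6, 7 of the 10 were called (background 43.1%), among them NR1D1 (-1.40, SE 0.44, edgeR adjusted p = 0.017) and CIART (-2.02, SE 0.69, adjusted p = 0.027). With all libraries numbered 1, 2 or 3 left out in turn, 0 of the 9 genes then tested were called by edgeR and 1, 2 and 5 had an unadjusted p under 0.05, but 0% of all genes were called in these fits. Leaving out the libraries numbered 4 gave 5 called genes (background 44.8%). In CFSE-labeled cells PER2 and CRY1 were called under each of these 4 omissions, but PER1 and NR1D1 were lost without replicate 1 or 2 (background 22.3% and 20%, against 30% and 40% without replicate 3 or 4). Without the CFSE-labeled day 1 replicates 3 and 4 and the unlabeled library, 5 of 9 were called with dye, all lower (background 48.3%): NR1D1 (-1.77, SE 0.38, edgeR adjusted p = 0.0014), PER2 (-1.76, SE 0.17), PER1 (-1.65, SE 0.33), CRY1 (-0.73, SE 0.14) and CRY2 (-0.58, SE 0.14, adjusted p = 0.0041).

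The immediate early genes, which cells switch on within minutes of a signal, moved along with this pattern. The summed level of 10 such genes was 4004, 3647, 928 and 928 CPM in CFSE-labeled day 1 replicates 1 to 4 against 554 to 824 CPM at day 6. In unlabeled cells it was 1148, 1078, 695 and 478 CPM at day 1 against 495 to 641 CPM. Replicates 1 and 2 of day 1 were thus high in this sum, as they were in PER1, PER2, CRY1 and NR1D1. The other clock genes did not all share this: PER3 was lower in replicates 1 and 2 than in 3 and 4, at 0.639 times without dye and 0.729 times with it. All 10 immediate early genes fell with time in CFSE-labeled cells and 2 in unlabeled cells, and their part in the clock gene result was not tested.

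The effect of the dye itself was read from the same 16 libraries and touched few clock genes. At day 1 PER2 was higher with CFSE (log2 fold change 0.83, SE 0.27, edgeR adjusted p = 0.039) and was the only 1 of the 10 called, against a background of 21.8%. Without unlabeled day 1 replicate 4 its difference was 0.73 (SE 0.30, adjusted p = 0.091), and 0 of 10 were called by edgeR, 1 at an unadjusted p under 0.05, against 18.7% of all genes. Without all 3 day 1 libraries closer to another group it was 1.18 (SE 0.18, adjusted p = 0.00022) and CRY2 was called too (0.54, SE 0.15, adjusted p = 0.012), where 38.6% of all genes were called. With the libraries numbered 1, 2 or 3 left out in turn PER2 differed by 0.72 to 0.85 and was not called. DBP was lower by 0.60 at day 1, which missed the threshold (-0.60, SE 0.22, adjusted p = 0.056).

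At day 6 DBP was the only gene of the 10 called, where 5.14% of all genes were called. Its values with dye were 9.50, 8.52, 11.9 and 13.95 CPM against 19.3 to 28.4 CPM without, so the groups did not overlap. The difference was 1.03 on the log2 scale (log2 fold change -1.03, SE 0.21, edgeR adjusted p = 0.019). The call was lost with the libraries numbered 1 (-0.85, adjusted p = 0.32), 2 (-0.96, adjusted p = 0.157) or 3 (-1.14, adjusted p = 0.095) left out, where edgeR called 0 of all genes. Of 10 proliferation genes 8 were higher with dye at day 6, summing to 2952 to 3371 CPM against 1512 to 2089 CPM, and their part in the DBP result was not tested. Whether the time effect differed between labeled and unlabeled cells depended on the libraries used. With all 16, edgeR called 0 of the 10 (background 0.999%), 1 had an unadjusted p under 0.05, and DESeq2 called 0 (background 4.29%). Without the day 1 libraries closer to another group PER2 (-1.13, SE 0.24, edgeR adjusted p = 0.0035), CRY2 (-1.05, SE 0.19, adjusted p = 0.0014) and NR1D2 (-0.71, SE 0.19, adjusted p = 0.014) were called, each lower over time with dye than without, where 25.6% of all genes were called. Without the libraries numbered 4 NR1D2 was called (-0.77, SE 0.22, adjusted p = 0.046; background 7.5%).

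The sorted cells address how LRCs differ from the cycling cells around them. Across the 6 lines 6 of the 10 clock genes were called and all 6 were higher in LRCs, where 22.9% of 16603 genes were called in either direction. NR1D1 rose most (log2 fold change 0.88, SE 0.13, edgeR adjusted p = 2.65e-06), followed by BHLHE40 (0.45, SE 0.12, adjusted p = 0.0052), PER1 (0.42, SE 0.08, adjusted p = 0.00024) and NR1D2 (0.30, SE 0.06, adjusted p = 0.00025). The cryptochromes rose by less, CRY2 by 0.20 (SE 0.05, adjusted p = 0.0063) and CRY1 by 0.16 (SE 0.05, adjusted p = 0.018). The median over the 10 was 0.21, against 0.01 over all genes tested. The 10 genes were chosen with earlier results of these data known. Here and in the tests by line below, no count or median can therefore be read as an excess over all genes. NR1D1, PER1 and NR1D2 were called under omission of each replicate number in turn. CRY1 was lost without replicate 1, 2 or 3 (adjusted p = 0.073, 0.102 and 0.06), and BHLHE40 (adjusted p = 0.055) and CRY2 (adjusted p = 0.09) without replicate 1. The count over the 10 was thus 3, 5, 5 and 6 without replicates 1 to 4, where 14.8%, 18%, 13.7% and 15.7% of all genes were called.

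**Figure D2:**
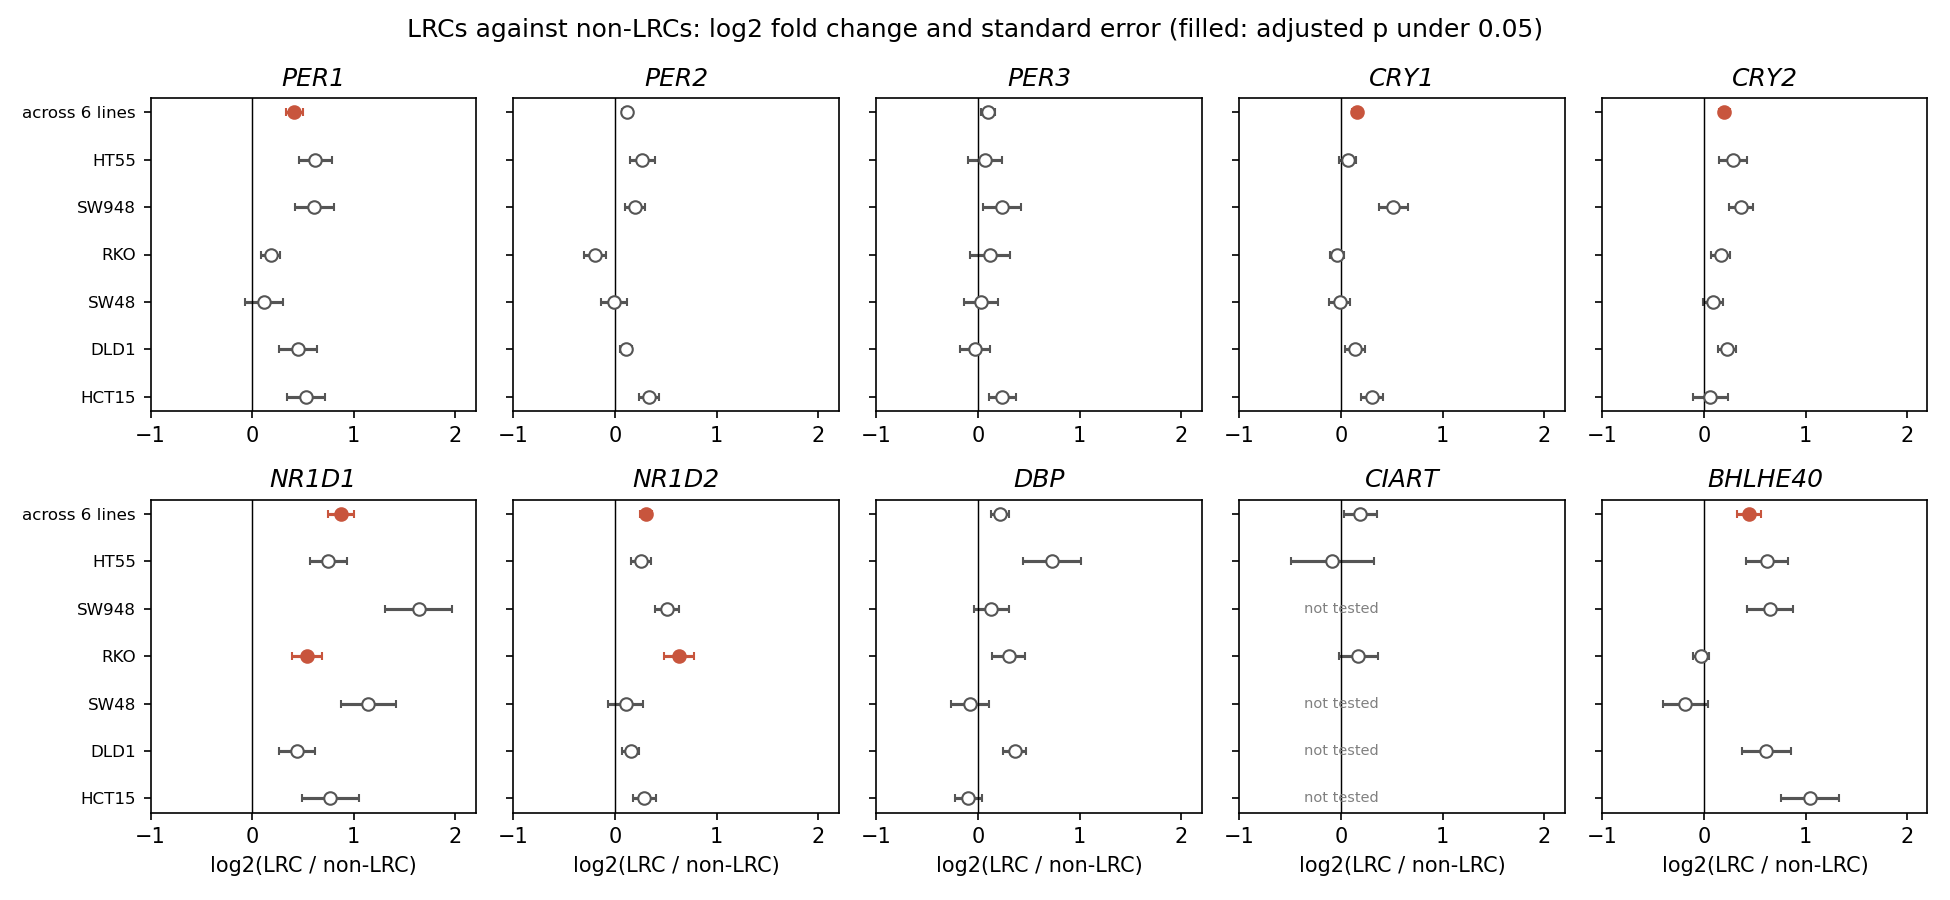
Log2 fold change of LRCs against non-LRCs (horizontal axis) with its standard error for the 10 clock genes, across the 6 lines and in each line; filled red points have an edgeR adjusted p under 0.05. The filled points across lines are PER1, CRY1, CRY2, NR1D1, NR1D2 and BHLHE40, all right of 0, and within lines only NR1D1 and NR1D2 in RKO are filled.

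NR1D1 was the most regular of them, being higher in the LRC library in 23 of the 24 pairs of the same line and number. In SW948 and RKO same-numbered libraries did not deviate together, so there a pair shares only its number, here and in the counts of pairs below. For counts of pairs and for groups without overlap the share of all genes is not given, so no excess can be read from them. In RKO the non-LRC values of NR1D1 were 12.7, 13.2, 12.2 and 15.7 CPM and its LRC values 27.7, 17.2, 16.01 and 19.6 CPM. In SW48 they were 22.3, 15.3, 20.4 and 19.9 CPM against 53.97, 62.7, 29.9 and 25.4 CPM. In these CCS2 lines every LRC library lay above every non-LRC library, where edgeR called 41.5% of all genes in RKO and 0.796% in SW48.

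In SW948 NR1D1 stood at 23.97, 22.0, 17.6 and 18.8 CPM in non-LRCs and at 69.2, 74.7, 91.1 and 19.8 CPM in LRCs. In HT55 it stood at 60.5, 94.7, 85.7 and 81.7 CPM against 136, 94.1, 181 and 130 CPM. The libraries that broke the separation, SW948 LRC replicate 4 and the replicate 2 libraries of HT55, include those named above as closer to the other group. In DLD1 the values were 45.1, 56.7, 33.8 and 36.6 CPM against 61.6, 74.3, 49.9 and 46.1 CPM, and in HCT15 57.6, 58.2, 30.6 and 25.7 CPM against 86.2, 89.2, 72.4 and 45.0 CPM. In these CCS3 lines the groups overlapped, but each LRC library was higher than the non-LRC library of its number. Replicates 1 and 2 were above 3 and 4 in all 4 of these groups.

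The paralog NR1D2 was higher in LRCs in 22 of 24 pairs. In RKO, where it was lowest, it stood at 6.90, 8.18, 5.05 and 8.74 CPM in non-LRCs and 10.52, 11.5, 11.1 and 12.6 CPM in LRCs. In HCT15 it stood at 95.6, 96.8, 65.7 and 79.9 CPM against 102, 108, 100.1 and 100.5 CPM. LRC and non-LRC libraries did not overlap in these 2 lines. In the other lines the groups overlapped, and the LRC means were higher by between 1.08 times in SW48 (70.3 against 65.3 CPM) and 1.42 times in SW948 (67.4 against 47.4 CPM), beside 1.58 times in RKO and 1.21 times in HCT15.

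PER1 was likewise higher in 22 of 24 pairs. In HT55 it stood at 13.9, 24.1, 15.9 and 14.7 CPM in non-LRCs and at 27.5, 25.0, 26.1 and 26.8 CPM in LRCs, without overlap. In HCT15 it stood at 44.6, 40.6, 26.1 and 25.2 CPM against 56.7, 45.0, 51.3 and 43.0 CPM. In DLD1 the values were 29.9, 34.2, 20.8 and 21.5 CPM against 39.5, 46.4, 31.9 and 26.8 CPM. The pairs that went the other way were SW948 replicate 4 and SW48 replicate 3.

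BHLHE40, an E-box repressor also known as a hypoxia responsive gene, had higher LRC means in 4 of the 6 lines. In HCT15 it stood at 30.1, 35.8, 16.97 and 14.7 CPM in non-LRCs and at 57.9, 62.99, 47.7 and 31.95 CPM in LRCs. In HT55 it stood at 173, 161, 131 and 196 CPM against 325, 158, 223 and 312 CPM. In SW48 the mean was 57.04 CPM in non-LRCs and 50.4 CPM in LRCs, which was not called, and in RKO it was 513 CPM in both. Every HCT15 and DLD1 pair rose, while 16 of all 24 pairs did. The summed level of 10 hypoxia genes had the higher LRC mean in every line but SW48, where it was 1137 CPM in non-LRCs and 1052 CPM in LRCs, and 5 of these 10 genes rose across lines. In SW948 it was 1437 to 2173 CPM in non-LRCs and 1447 to 3787 CPM in LRCs. In RKO, where BHLHE40 was flat, the mean sum was 570 CPM in non-LRCs and 796 CPM in LRCs and 5 of the hypoxia genes rose (ADM, ANKRD37, CA9, KDM3A and NDRG1). Their part in the BHLHE40 result was not tested.

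**Figure D3:**
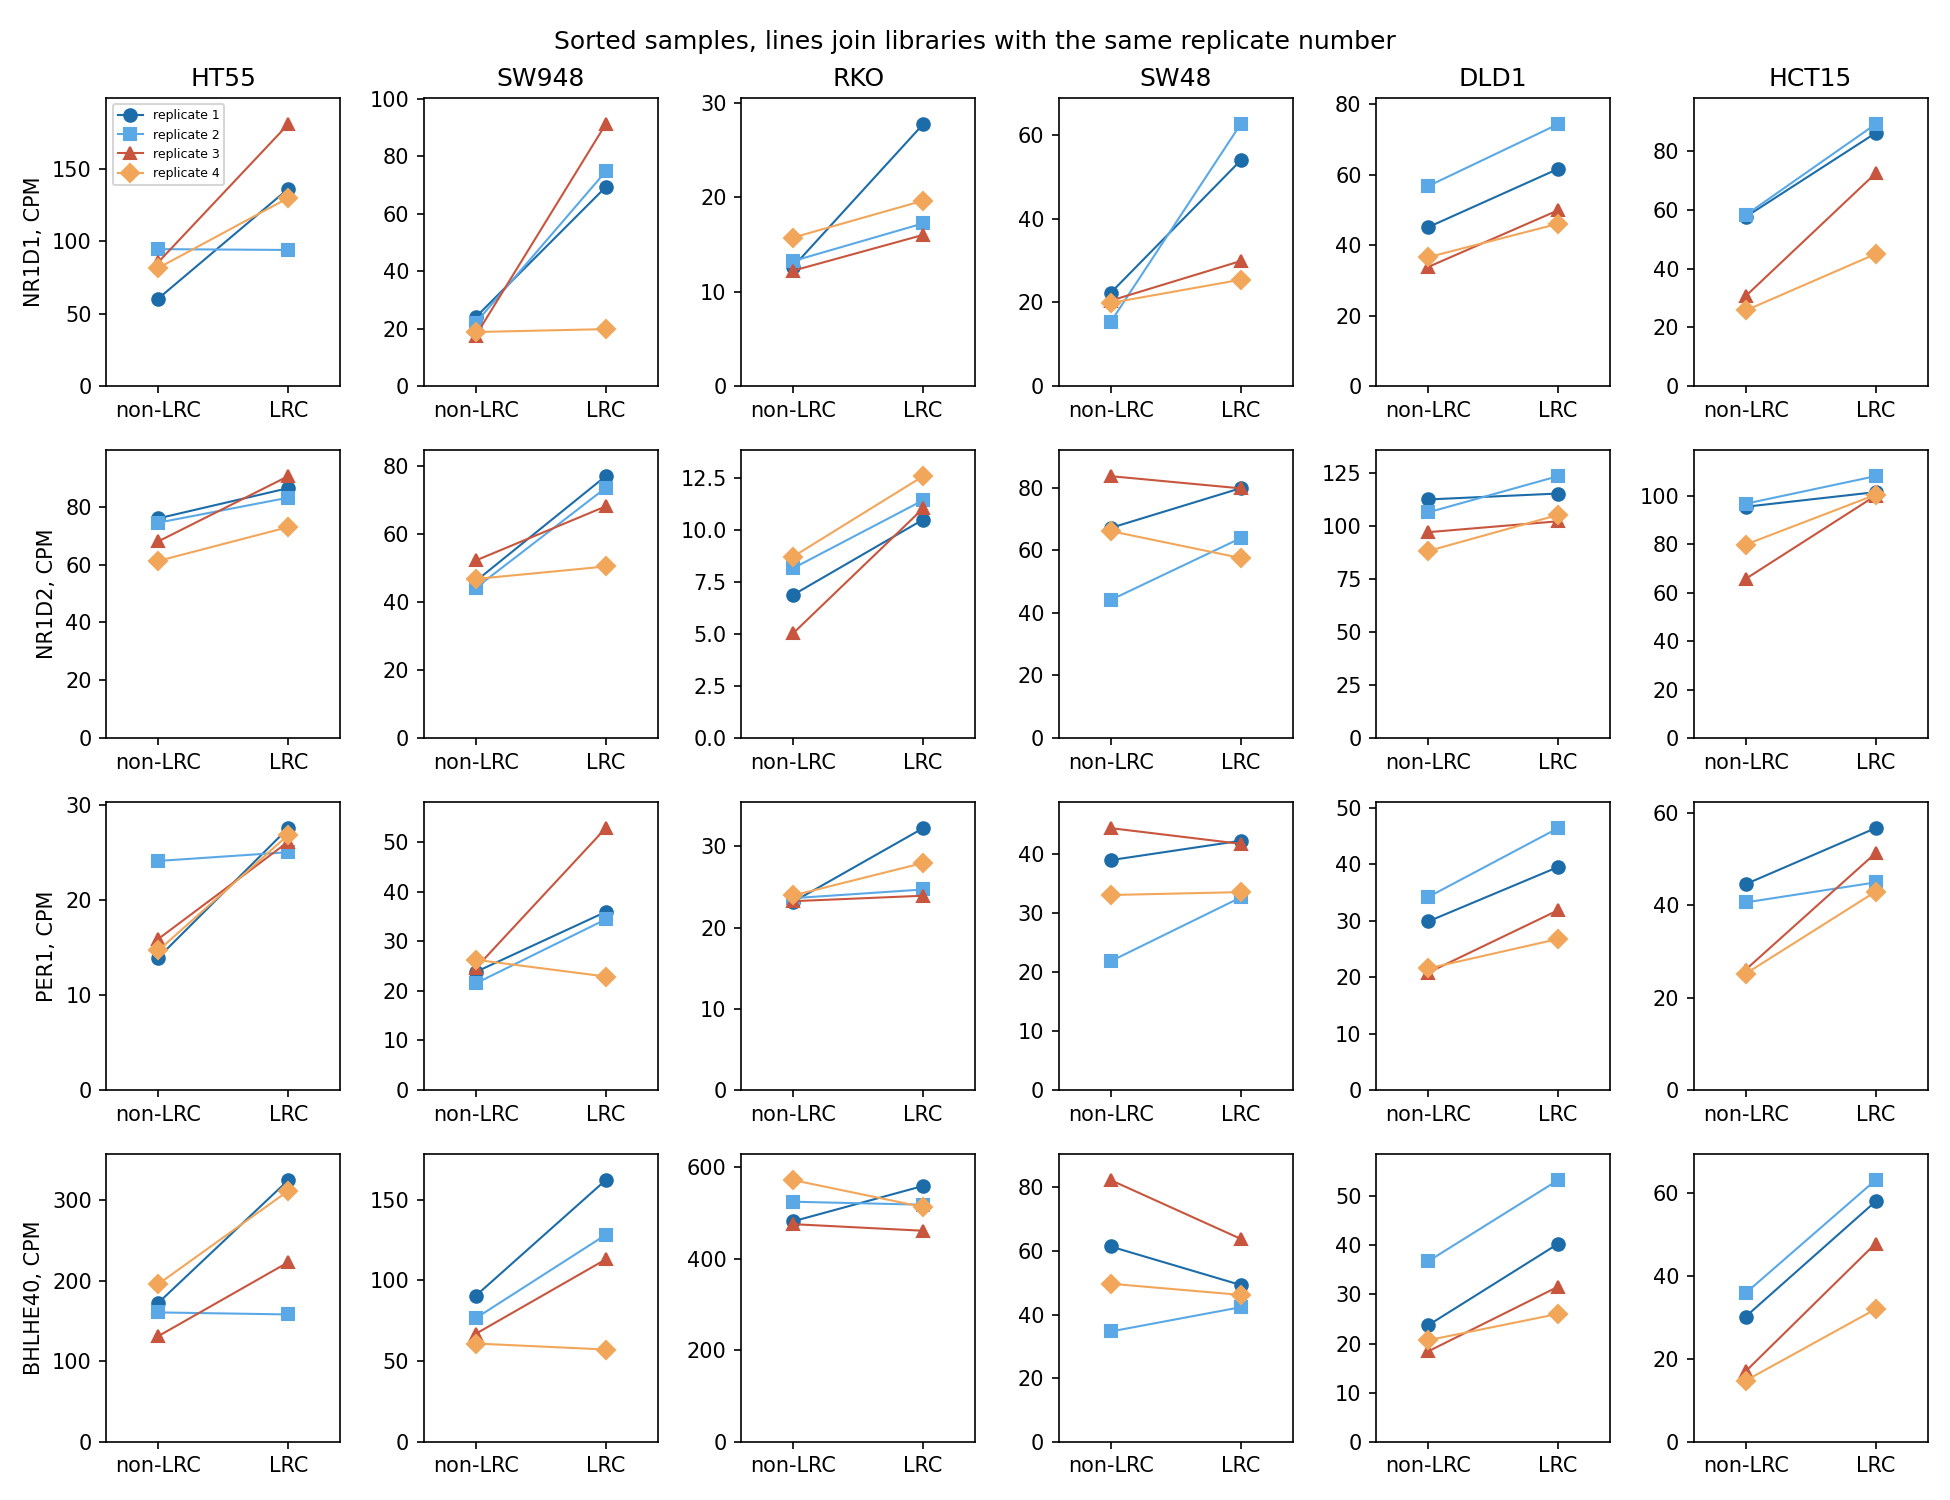
NR1D1, NR1D2, PER1 and BHLHE40 in CPM (vertical axis, from 0, own scale in each panel) in non-LRCs and LRCs of the 6 lines; lines join libraries with the same replicate number. NR1D1 lines rise in 23 of 24 cases; in SW48 NR1D1 rises from 15.3 to 22.3 CPM to 25.4 to 62.7 CPM, while BHLHE40 is flat in RKO near 513 CPM.

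The remaining genes moved little. PER2 differed by 0.12 across lines (SE 0.05, edgeR adjusted p = 0.082), and it was the clearest in HCT15, where LRC values of 22.8 to 26.6 CPM lay above non-LRC values of 17.2 to 21.5 CPM. DBP differed by 0.21 (SE 0.09, adjusted p = 0.073), and its LRC values of 4.17 to 4.67 CPM in RKO lay above non-LRC values of 3.11 to 3.87 CPM. PER3 differed by 0.10 (SE 0.07, adjusted p = 0.32) and CIART by 0.19 (SE 0.16, adjusted p = 0.43), and each was higher in 14 of 24 pairs. The cryptochromes were each higher in 20 of 24 pairs, with group means that differed most in SW948, from 18.9 to 26.9 CPM for CRY1 and from 46.5 to 59.6 CPM for CRY2.

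Line by line the test rarely called a clock gene. The backgrounds below hold for the adjusted threshold and are no measure for the counts at an unadjusted p under 0.05. In RKO, where 41.5% of all genes were called, it called NR1D1 (log2 fold change 0.54, SE 0.15, edgeR adjusted p = 0.008) and NR1D2 (0.63, SE 0.15, adjusted p = 0.0028), which is 2 of 10. In HT55 0 of 10 were called by edgeR (background 0%), although 5 had an unadjusted p under 0.05, and DESeq2 called NR1D1 (background 0.276%). In SW948 0 of the 9 tested were called (background 0%), 6 had an unadjusted p under 0.05, and DESeq2 called CRY1, NR1D1 and NR1D2 (background 1.78%).

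The other lines were similar in this respect. In SW48 edgeR called 0 of 9 (background 0.796%), with 1 at an unadjusted p under 0.05, and DESeq2 called NR1D1 (background 2.74%). In DLD1 edgeR called 0 of 9 (background 14.6%), with 5 at an unadjusted p under 0.05, and DESeq2 called DBP (background 16%). In HCT15 edgeR called 0 of 9 (background 0.977%), with 6 at an unadjusted p under 0.05, and DESeq2 called BHLHE40 (background 3.79%). Of the 9 genes other than CIART, 9 had the higher mean in LRCs of HT55 and of SW948, 8 in DLD1 and in HCT15, 6 in RKO and 5 in SW48. The share of all genes with a higher LRC mean is not given. The median log2 fold change over all genes tested ran from -0.0072 in SW48 to 0.016 in DLD1. Over the clock genes tested it ran from 0.030 in SW48 to 0.514 in SW948.

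Libraries with the same number deviated together in HT55, SW48, DLD1 and HCT15, and with that number as a block more clock genes passed. In DLD1 the blocked test called 6 of 9 (background 33.8%), all higher: BHLHE40 (log2 fold change 0.62, SE 0.07, edgeR adjusted p = 3.26e-07), PER1 (0.46, SE 0.06), NR1D1 (0.44, SE 0.05), DBP (0.37, SE 0.07), CRY2 (0.23, SE 0.06) and NR1D2 (0.15, SE 0.05). In HCT15 it also called 6 of 9 (background 21.3%), led by BHLHE40 (1.08, SE 0.09, adjusted p = 1.07e-06) and NR1D1 (0.81, SE 0.09, adjusted p = 1.28e-05), with PER1 (0.56), PER2 (0.33), CRY1 and NR1D2 (both 0.30). In SW48 it called NR1D1 (1.07, SE 0.22, adjusted p = 0.014) where 9.69% of all genes were called. In HT55 it called 0 of 10 and 0% of all genes, with 7 of the 10 at an unadjusted p under 0.05, a cutoff whose share of all genes is not given. Across lines the block brought the count to 7 (background 25.5%) by adding DBP (0.23, SE 0.08, adjusted p = 0.035). That block also covers SW948 and RKO, where the libraries share only a number.

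Leaving out the libraries that were closer to another group had its largest effect in SW948, where only LRC replicate 4 was concerned. There 6 of 9 were then called (background 14.5%), with NR1D1 at 1.95 (SE 0.12, edgeR adjusted p = 6.59e-07), BHLHE40 at 0.88 (SE 0.13), PER1 at 0.79 (SE 0.14), CRY1 at 0.66 (SE 0.10), NR1D2 at 0.63 (SE 0.08) and CRY2 at 0.48 (SE 0.08). In HT55 without non-LRC replicate 2, 4 of 10 were called (background 3.92%): DBP (1.19, SE 0.15), NR1D1 (0.84, SE 0.18), PER1 (0.84, SE 0.11) and PER2 (0.40, SE 0.10). In HCT15 2 of 9 were called (background 2.53%), BHLHE40 (1.44, SE 0.23) and NR1D1 (1.12, SE 0.25). Across lines 8 of 10 were called (background 24.6%), all higher, with DBP and PER2 added.

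Whether the LRC effect differed between the lines was tested directly. By edgeR 0 of the 10 passed (background 14.3%), 4 had an unadjusted p under 0.05 (CRY1, DBP, PER2 and BHLHE40), and DESeq2 called CRY1 (background 20.5%). CRY1 lay at the threshold (adjusted p = 0.05021), with a log2 fold change of 0.52 (SE 0.15) in SW948 and -0.04 (SE 0.07) in RKO. With the replicate number as a block CRY1, DBP and BHLHE40 were called, where 33.6% of all genes were. Without the libraries closer to another group 5 were called, PER2, CRY1, NR1D1, DBP and BHLHE40 (background 30.3%). BHLHE40 ranged from -0.18 (SE 0.23) in SW48 to 1.04 (SE 0.29) in HCT15.

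Other changes went with the LRC comparison in the same libraries. Of 10 proliferation genes 8 were lower in RKO LRCs and 7 in DLD1 LRCs, with sums of 728 to 1263 CPM against 1502 to 1636 CPM in RKO and of 782 to 1159 CPM against 1305 to 1442 CPM in DLD1. In the other lines 0 of the 10 were called by edgeR: the mean sum was 963 CPM in non-LRCs and 949 CPM in LRCs of HT55, 998 and 708 CPM in SW48, and higher in LRCs of SW948 (1432 and 1484 CPM) and HCT15 (1458 and 1691 CPM). Of 8 markers of fibroblasts, leukocytes and endothelium 4 were tested across lines and only CD68 was called, higher in LRCs. All libraries came from cell lines, so the markers are read here as genes and not as cells of those types. The summed level of 7 of them had the higher mean in LRCs of every line, from 1368 against 1089 CPM in RKO and 66.3 against 52.8 CPM in SW948 to 11.8 against 5.82 CPM in DLD1 and 25.6 against 9.98 CPM in HCT15. Few of the 8 had counts enough for a test within a line: 1 in RKO, 2 in SW948 and in HCT15, and 3 in DLD1. In RKO the tested marker was CD68, so the sum there is almost wholly that of CD68 and shows no shift of the other markers. Among the markers CD3E was at 0 in every library, and DCN and COL1A2 did not exceed 0.223 and 0.193 CPM. Among the sorted cells of a line, fewer cells in a given state and less RNA per cell cannot be told apart. The part of these changes in the clock gene result was not tested.

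For each clock gene the highest and lowest of the 6 lines in non-LRCs lay further apart than the LRC and non-LRC means of any line. The margin was narrow for PER1, at 2.02 times between lines against 1.54 times in HT55 LRCs. For NR1D1 it was 5.99 times against 3.10 times in SW948 LRCs. All 10 differed between the 6 non-LRC groups, as did 98.3% of all genes tested, so the call itself sets them apart from nothing. BHLHE40 had the widest range, from 513 ± 44.6 CPM (SD, n = 4) in RKO to 24.4 ± 10.2 CPM in HCT15, a ratio of 21.0. RKO was at the other end for its clock partners: NR1D2 was 7.21 ± 1.64 CPM there and 101 ± 10.7 CPM in DLD1, a ratio of 14.02, and DBP was 3.53 ± 0.333 CPM there and 24.5 ± 2.14 CPM in HCT15, a ratio of 6.95. CIART, in contrast, was highest in RKO at 3.35 ± 0.58 CPM against 0.20 ± 0.116 CPM in DLD1.

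The remaining genes had other orders. PER3 ran from 22.4 ± 5.76 CPM in SW48 to 2.63 ± 0.432 CPM in SW948, and it was the only 1 of the 10 in which every neighbor in the order SW48, DLD1, HCT15, HT55, RKO and SW948 differed by edgeR. NR1D1 was highest in HT55 at 80.6 ± 14.5 CPM and lowest in RKO at 13.5 ± 1.57 CPM. In that order HCT15 and DLD1 (43.1 and 43.0 CPM) did not differ beyond their spread, nor did SW948 and SW48.

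PER2 was highest in HT55 at 69.0 ± 11.4 CPM and lowest in SW48 at 18.8 ± 2.15 CPM, with HT55 not separable from SW948 nor HCT15 from SW48. CRY1 was highest in RKO at 55.8 ± 1.61 CPM and lowest in SW948 at 18.9 ± 0.484 CPM, where CRY2 was at its highest, 46.5 ± 2.35 CPM against 24.5 ± 1.16 CPM in RKO. The cryptochromes were thus in opposite positions in these 2 lines. PER1 varied least between the lines apart from CRY2, from 34.5 ± 9.66 CPM in SW48 to 17.1 ± 4.70 CPM in HT55, and no pair of neighbors in its order differed.

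For BHLHE40 the neighbors SW948 and SW48, and DLD1 and HCT15, did not differ. For NR1D2 the 4 highest lines DLD1, HCT15, HT55 and SW48 formed a chain in which no neighbors differed, and for DBP HCT15 and DLD1 did not differ, nor did the chain of SW48, HT55 and SW948. All comparisons of DLD1 with HCT15 carry the limit that the controls labelled DLD1 resembled HCT15.

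**Figure D4:**
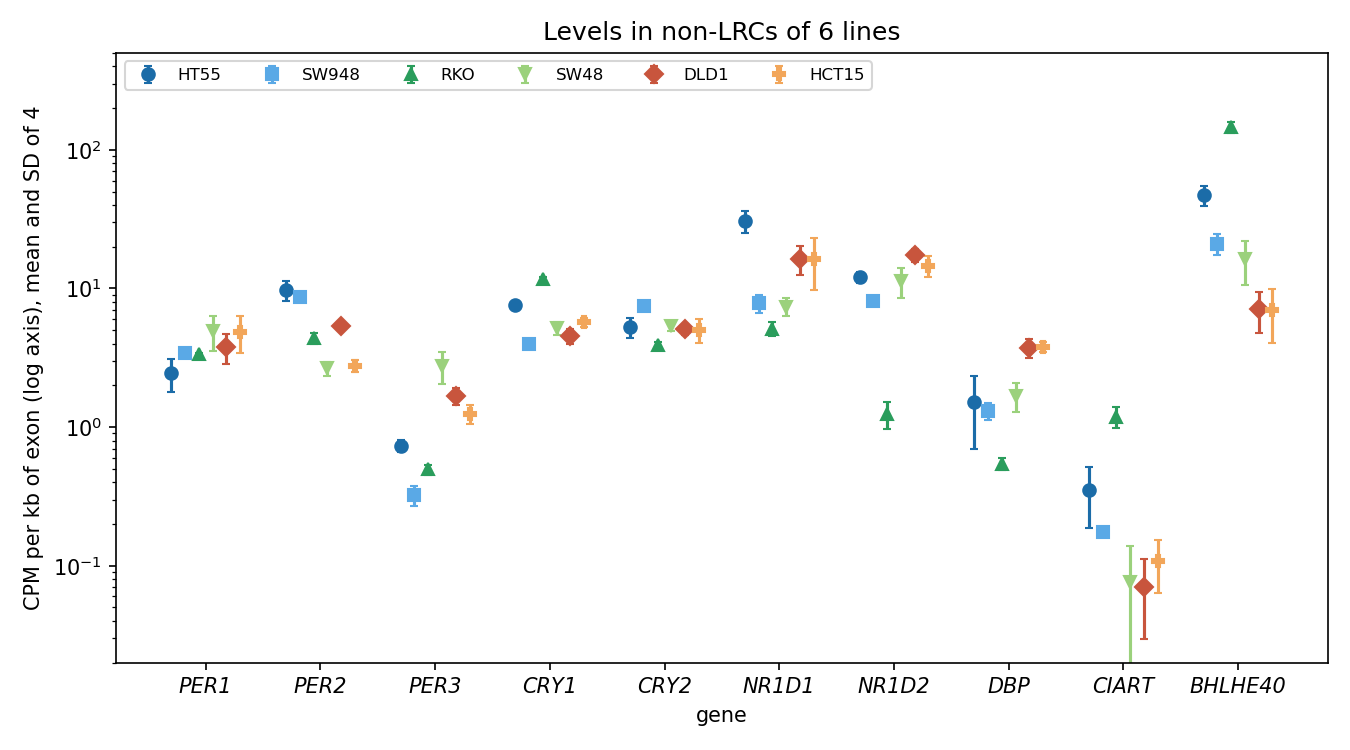
Level of the 10 clock genes per kb of exon (CPM per kb, log axis) in non-LRCs of the 6 lines; points are means of 4 libraries and bars are SD, cut off where they reach below the axis. BHLHE40 in RKO stands highest at 146 CPM per kb, CIART is lowest outside RKO, and NR1D2 and DBP are lowest in RKO.

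Per kb of exon, a rough scale for comparing genes, NR1D1 and BHLHE40 ranked among the first 4 of the 10 in each of the 16 groups. The length joins all annotated exons of a gene and can exceed that of its transcripts, so the ranks depend partly on the annotation. NR1D1 reached from 5.12 CPM per kb in RKO non-LRCs to 51.5 CPM per kb in HT55 LRCs, and BHLHE40 from 6.94 CPM per kb in HCT15 non-LRCs to 146 CPM per kb in RKO non-LRCs. CIART was always among the last 3, at 0.0549 to 1.35 CPM per kb, and PER3 ranked between 7 and 10, at 0.324 to 2.82 CPM per kb. NR1D2 moved from rank 1 to rank 7 between groups, the widest span together with PER2, which ranked from 2 to 8.

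NR1D1, BHLHE40 and PER1, which led the LRC changes, varied more between replicates than other genes of their level. In the controls the biological coefficient of variation was 0.44 for NR1D1, 0.37 for PER1 and 0.34 for BHLHE40, where the trend of all genes at the same counts was 0.17, 0.18 and 0.18. In the sorted samples it was 0.28 for NR1D1, 0.26 for BHLHE40 and 0.19 for PER1, against a trend of 0.11, 0.11 and 0.12. CRY1, at 0.16 in the controls and 0.096 in the sorted samples, lay below its trend in both.

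Of 19 other clock genes 18 were tested across lines, and 8 were higher and 1 lower in LRCs, where 22.9% of all genes were called. The activator gene ARNTL, a target of REV-ERB repression, rose by 0.24 (SE 0.06, edgeR adjusted p = 0.0014), and the ROR receptor gene RORA, whose product competes with REV-ERB for the same sites, rose by 0.41 (SE 0.10, adjusted p = 0.0025). BHLHE41, the paralog of BHLHE40, rose by 0.89 (SE 0.21, adjusted p = 0.0013). NFIL3, which opposes DBP at D-boxes, rose by 0.34 (SE 0.08), NOCT by 0.52 (SE 0.13), USP2 by 0.36 (SE 0.11) and the kinase gene CSNK1D by 0.09 (SE 0.03).

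TIMELESS, whose product acts at replication forks, was the gene that fell, by 0.27 (log2 fold change -0.27, SE 0.08, edgeR adjusted p = 0.0095). In RKO 7 of the 17 tested were higher and 3 lower, where 41.5% of all genes were called, with BHLHE41 at 1.82 (SE 0.19, adjusted p = 4.49e-06). In SW48 BHLHE41 was the single call, but it passed the filter on low counts through the LRCs alone, at 3.05, 3.27, 1.08 and 0.773 CPM against 0.135 to 0.233 CPM in non-LRCs, so that no fold is given. The effect on BHLHE41 differed between lines by the direct test, as did those on NOCT and TEF. NOCT, higher across lines, was among the 3 called lower in RKO LRCs.

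With time in culture 2 of the 18 rose and 2 fell in unlabeled controls, and 4 rose and 3 fell in CFSE-labeled controls, close to the 25.5% and 39.3% of all genes called. TEF, the sister factor of DBP, rose in both (0.50, SE 0.18, edgeR adjusted p = 0.0497 and 0.92, SE 0.18, adjusted p = 0.0014). NOCT fell by 1.69 in CFSE-labeled cells (log2 fold change -1.69, SE 0.41, adjusted p = 0.0046). ARNTL fell in unlabeled cells (-0.57, SE 0.14, adjusted p = 0.012). The dye at day 1 went with higher NOCT (1.74, SE 0.41) and lower TEF (-0.87, SE 0.18) among 5 calls.

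Over the mean log2 CPM of the 16 groups the genes most like each clock gene among 15757 were FAAH2 for NR1D2 (Pearson r = 0.98), PWWP2B for DBP (0.971), CIRBP for PER3 (0.964), NUMB for BHLHE40 (0.958) and ZNF439 for CIART (0.951). For PER1 and NR1D1 the closest were looser, GUSBP3 (0.841) and EXOC8 (0.90). The 16 points share their lines, so that these values mainly describe the differences between lines.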

How the data were processed

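RNAseq counts per gene of 64 libraries were analyzed as the authors deposited them. Per the labels and the submitters' processing notes, reads were aligned to hg19 with TopHat, counted with HTSeq and tested with DESeq; versions, annotation and strand setting are not given in the sources used here. The rows for reads without a feature (5.19% to 14.8% per library) and the other summary rows were left out. The authors' own tests were not used.

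Ensembl identifiers were matched to symbols with GENCODE release 44 on GRCh37 (39260 of 54127). Counts were scaled by TMM and tested with edgeR 4.0.16 (quasi-likelihood, two-sided, in R 4.3.3) on genes that reached 10 counts in 4 or more samples of the fit, adjusted by Benjamini-Hochberg over all genes. Time and dye were fitted on the 16 controls, LRCs against non-LRCs on the 8 samples of each line and on all 48 with line as a covariate. SE was the log2 fold change divided by the root of F. Mean log2 CPM used a prior count of 2. DESeq2 1.42.0, other filters and scalings, a replicate block and omission of replicates were alternatives; the scripts were tested on simulated data.

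The 10 genes and all lists were chosen with earlier results of these data known. All 10 genes are named, with other clock genes from a list, some of which are counted but not reported here by name, and, per gene, those of highest correlation over groups. Replicate numbers come from the labels and paired the samples where every same-numbered correlation of deviations exceeded 0.1: in HT55 (0.141 to 0.387), SW48 (0.123 to 0.45), DLD1 (0.151 to 0.319), HCT15 (0.232 to 0.418) and the CFSE-labeled controls (0.12 to 0.232), but not in SW948, RKO or the other control comparisons. Libraries held 12237225 to 20913455 counts, and of the 10 genes CIART had the lowest mean CPM in each of the 16 groups.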

Additional observations from a re-analysis of the deposited data

Results flagged for a closer look

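In 160 sets of 4 replicates, each being 1 clock gene in 1 group, a single library lay far from the rest: NR1D2 in unlabeled day 1 replicate 4 at 97.7 CPM, where replicates 1 to 3 stood at 52.7, 50.0 and 46.0 CPM. Chance alone would mark about 1 in 20 such sets, more than the 1 found in 160. The rule left unmarked other sets with 1 distant library, such as NR1D1 in SW948 LRCs. Over all genes the same library correlated more with the unlabeled day 6 libraries (mean r 0.989) than with its own group (0.975). Without it the rise of NR1D2 with time in unlabeled cells was 1.003 on the log2 scale (SE 0.17, edgeR adjusted p = 0.00027) in place of 0.68.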

How the results depend on the processing

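Of 175 counts of called clock genes under an alternative, 109 stayed within 1.5 times the value reported and 66 moved; of 1333 values of single genes, 1127 kept their side of the threshold, 42 lost it, 121 gained it, 42 moved by more than their SE and 1 reversed. The reversal was PER1 over time in unlabeled cells, at 0.057 with replicates 3 and 4 only. RLE scaling left every count as reported. Where a count below has no share of all genes called beside it, no excess over that share can be read from it. The causes were not tested.

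With the replicate number as a block, calls were 2 for time in unlabeled cells (DBP and NR1D2), 3 for the difference of the LRC effect between lines, 5 in SW948, 1 in SW48 and 6 each in DLD1 and HCT15, and no other count moved by over 1.5 times. In SW948, RKO and 3 of the control comparisons the samples share only a number.

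Leaving out each replicate number in turn gave 0 to 5 calls for time in unlabeled cells, 2 to 4 in CFSE-labeled cells, 0 to 1 for dye at day 1, 0 to 2 for dye at day 6, 0 to 1 for the difference of the time effects, 3 to 6 across lines, 0 to 2 for the difference between lines, 0 to 5 in HT55 (5 without replicate 2), 0 to 6 in SW948 (6 without replicate 4) and 0 to 3 in DLD1 (3 without replicate 2). DESeq2 called 2 for dye at day 1, 1 for the difference between lines, 3 in SW948, and 1 each in HT55, SW48, DLD1 and HCT15. Without a filter on low counts there were 2 calls for dye at day 1, 3 for the difference between lines, 3 in HT55, 6 in SW948, 1 in SW48, 4 in DLD1 and 2 in HCT15; with at least 10 counts in every sample there was 1 for the difference between lines. A fit on only the 8 samples compared gave 1 for time in unlabeled cells, 0 for dye at day 1 and 2 at day 6. A fit of all 48 sorted samples gave 3 in SW948 and 1 each in RKO, SW48 and HCT15. Requiring a log2 fold change of at least 1 left 1 for time in unlabeled cells and 0 for dye at day 1, across lines and in RKO.

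Chosen after seeing the data, the fit without unlabeled day 1 replicate 4 gave 7 for time in unlabeled cells and 0 for dye at day 1. Without the libraries closer to another group there were 7 for time in unlabeled cells, 2 and 3 for dye at day 1 and day 6, 3 for the difference of the time effects, 5 for the difference between lines, 4 in HT55, 6 in SW948 and 2 in HCT15, where 47.7%, 38.6%, 18.9%, 25.6%, 30.3%, 3.92%, 14.5% and 2.53% of all genes were called, in this order. Replicates 1 and 2 only gave 7, 4, 5 and 5 for time in unlabeled cells, dye at day 1, dye at day 6 and the difference of the time effects. The share of all genes called with replicates 1 and 2 only is not given. Replicates 3 and 4 only gave 0 for time in unlabeled cells and 0 for dye at day 6, where edgeR called 0 and 2 of all genes.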
